A study of Mus musculus with 2 samples.

Results

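The 36 genes described here encode the machinery that folds, oxidises and disposes of proteins in the endoplasmic reticulum (ER). They were listed by name, with earlier results of these data known. All 36 were found among the 22838 genes of the table, each once. The cells were NIH3T3, an established mouse fibroblast line, in 1 untreated library and 1 library made after 16 h in 100 µM ALA. ALA is not spelled out in the labels. It is the usual short form of δ-aminolevulinic acid, the first committed precursor of heme, and the title of the series names heme biosynthesis. Nothing but ALA is named as differing between the groups, and no oxygen tension, culture density or stress agent is given. Each group has a single library, so the differences below are descriptions of 2 libraries, without replicates and without p-values.

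Proteins that enter the ER are bound by chaperones of the HSP70 and HSP90 families, glycosylated, and held by the lectins calnexin and calreticulin while protein disulfide isomerases form and shuffle their disulfide bonds. The oxidases of the ERO1 family re-oxidise the isomerases and pass the electrons to oxygen. Proteins that fail to fold are extracted by the HRD1-SEL1L complex and degraded. When unfolded proteins accumulate, the sensors IRE1, ATF6 and PERK start the unfolded protein response, in which XBP1 and cleaved ATF6 raise many chaperone and degradation genes, some of them through the ER stress response element (ERSE), whereas Ero1l is known to be raised also by the hypoxia-inducible factors (HIF), which bind hypoxia response elements. The comparison therefore asks whether the oxidase gene moved with the rest of the folding machinery or apart from it.

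Ero1l stood apart from the other members. Its level was 225 FPKM without ALA and 83.2 FPKM with it, where FPKM are fragments normalised to transcript length and library size. The chaperones, isomerases, lectins, stress sensors and degradation genes all lay within 1.5-fold, on either side of no difference. Of the 35 members that were measured, meaning a mean of at least 1 FPKM over both libraries, 1 was lower at 1.5-fold, where 7.16% of all 10929 measured genes were. None was higher at 1.5-fold, against 5.9% of measured genes. At 2-fold, 1 member was again lower and none higher, where 2.01% of measured genes were lower and 1.49% higher. All differences are given as log2((ALA FPKM + 1)/(untreated FPKM + 1)), called the log2 ratio here, and calls of 1.5-fold use that scale, on which 1.5-fold is 0.585. Folds and percent changes, in contrast, are of plain FPKM. Of the 35, 18 had log2 ratios above 0 and 17 below, where 47.8% of measured genes were above and 52.2% below. The median log2 ratio was 0.00 over the 35 members, 0.01 over the 34 without Ero1l, and -0.02 over all measured genes.

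**Figure D1:**
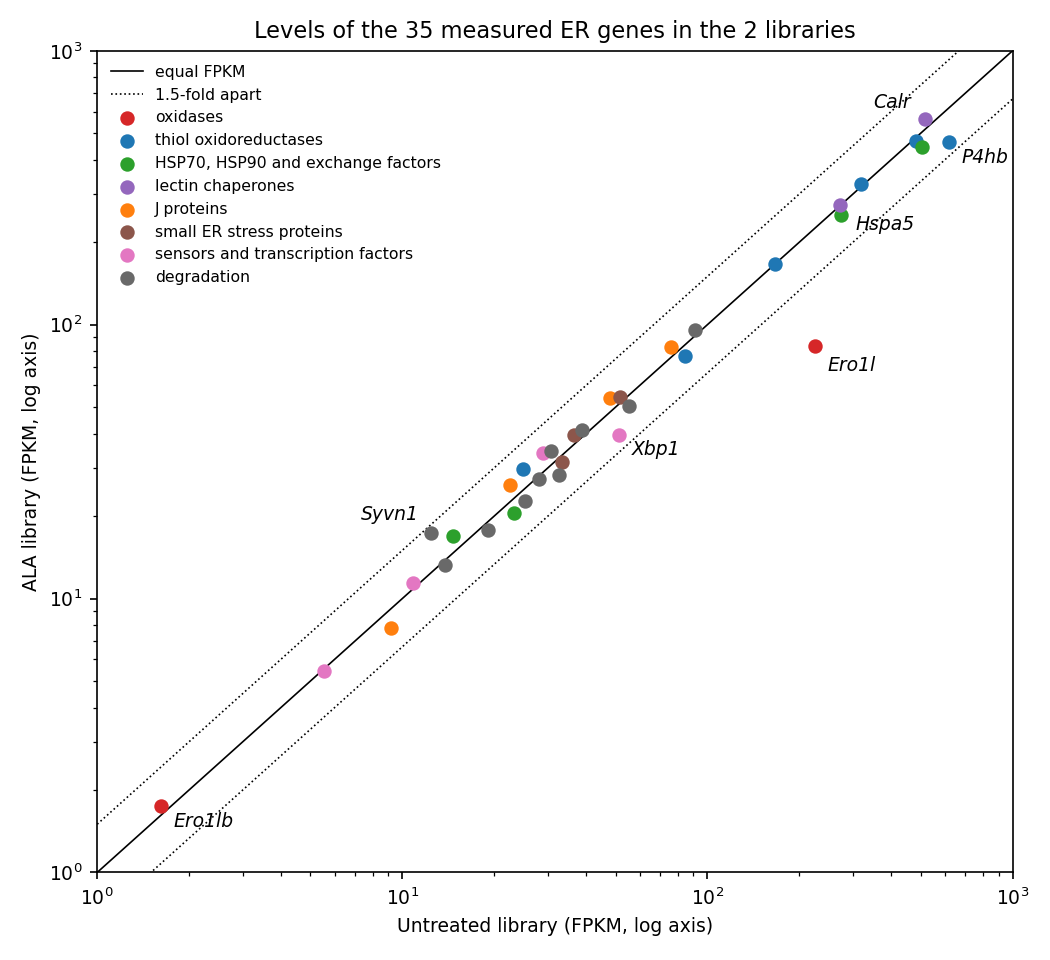
FPKM of each measured member, untreated on the horizontal log axis and with ALA on the vertical log axis, 1 point per gene, coloured by role, with lines for equal values and for a 1.5-fold difference of the plain ratio. Ero1l, at 225 and 83.2 FPKM, is the single point below the lower 1.5-fold line, and Syvn1 and P4hb lie nearest to the lines on the inner side.

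The promoters of the members are shown first, with a search for elements of the ER stress response and of the hypoxia response. RefSeq promoters of build GRCm38.p6, from 250 bases before to 50 bases after the annotated start, were found for 31 of the 36 members. Hyou1, Sil1, Manf, Atf6 and Derl1 had no entry. Each was searched on both strands for the full ERSE (CCAAT, 9 bases of any kind, CCACG), the ERSE-II (ATTGG, any base, CCACG), the unfolded protein response element (UPRE, TGACGTGG) and the core of the hypoxia response element (ACGTG or GCGTG). The Ero1l promoter follows, at chr14:45318523-45318822 on the minus strand, 5′ to 3′, with the hypoxia element cores in capitals. A core on the opposite strand reads CACGT or CACGC.

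Ero1l promoter: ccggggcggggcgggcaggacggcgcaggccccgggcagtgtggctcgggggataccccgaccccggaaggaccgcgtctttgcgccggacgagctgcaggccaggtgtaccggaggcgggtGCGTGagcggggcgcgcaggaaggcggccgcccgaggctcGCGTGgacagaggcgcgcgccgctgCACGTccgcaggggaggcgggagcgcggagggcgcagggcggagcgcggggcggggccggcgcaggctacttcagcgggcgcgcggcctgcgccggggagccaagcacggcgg

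Ero1l held 3 hypoxia element cores, 2 of the G form and 1 of the A form. They began at positions -128, -88 and -63 from the start, as read along the gene. No full ERSE, ERSE-II or UPRE was found in this window. For comparison, the promoter of Calr, the calreticulin gene and the most abundant member with a full ERSE, is given at chr8:84846882-84847181 on the minus strand, with the ERSE in capitals, here on the opposite strand.

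Calr promoter: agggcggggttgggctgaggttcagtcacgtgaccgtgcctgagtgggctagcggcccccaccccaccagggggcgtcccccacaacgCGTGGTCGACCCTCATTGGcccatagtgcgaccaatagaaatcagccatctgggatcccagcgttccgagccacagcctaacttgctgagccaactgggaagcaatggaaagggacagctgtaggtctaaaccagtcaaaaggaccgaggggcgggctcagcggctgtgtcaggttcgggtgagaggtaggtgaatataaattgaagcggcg

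A full ERSE was present in 10 of the 31 members with a promoter (32.3%), and in 37 of all 27025 genes with a promoter in the table (0.137%). The 11 matches are printed below along the strand of the motif, with the conserved ends in capitals and the 9 bases between them in lower case, since it is these ends that define the element. Because several of these genes are the ones on which the ERSE was first described, their share is a description of the list and not a result of the treatment.

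Ero1lb: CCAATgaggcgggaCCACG
Pdia6: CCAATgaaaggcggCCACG
Hspa5: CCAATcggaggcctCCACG
Hsp90b1 distal: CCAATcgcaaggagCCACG
Hsp90b1 proximal: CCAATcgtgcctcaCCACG
Calr: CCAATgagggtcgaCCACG
Canx: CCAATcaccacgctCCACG
Dnajc3: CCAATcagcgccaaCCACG
Creld2: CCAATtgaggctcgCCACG
Syvn1: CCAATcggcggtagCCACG
Derl3: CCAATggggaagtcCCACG

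The first base of a match lay between position -212, in Hsp90b1, and position -44, in Syvn1, and Hsp90b1 held 2 matches. An ERSE-II was found in Herpud1 and Dnajb11 (12 of 27025 genes, 0.0444%), and a UPRE in Txndc5 (0.714% of genes). The hypoxia element core is short and common. It was present in 24 of the 30 members other than Ero1l (80.0%), in 23 of 24 genes of the list of HIF targets described below (95.8%), and in 46.7% of all genes with a promoter. In 5 members, namely Hsp90b1, Calr, Canx, Dnajb11 and Herpud1, a core overlapped an ERSE or ERSE-II. Such overlap is partly built in, since the CCACG end followed by T or C spells a core on the opposite strand. The UPRE always holds ACGTG, so the UPRE of Txndc5 also overlaps a core. A core in this window therefore did not set Ero1l apart from the other members, and the window of Ero1l shared its lack of the 3 stress elements with 17 other members. A match is a run of letters and not a shown binding site.

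**Figure D2:**
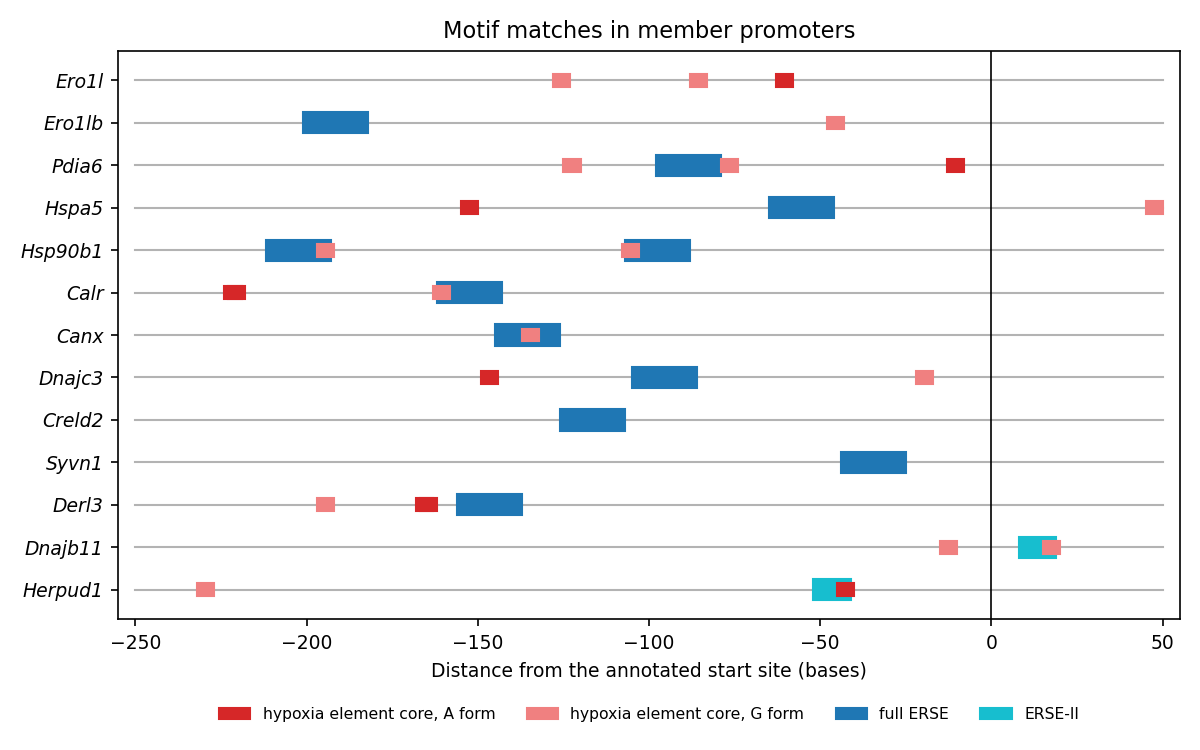
Positions of the motif matches, in bases from the annotated start, in the promoters of Ero1l, of the 10 members with a full ERSE and of the 2 members with an ERSE-II. Ero1l carries 3 hypoxia element cores and no stress element. Cores and stress elements lie side by side or overlap in several of the others, which were drawn because they hold a stress element. P4hb and Atf6b, not drawn, also have 3 core matches and no stress element, but the Atf6b matches at -48 and -47 are the same CACGTG read on both strands.

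The RNA of the members with an ERSE did not differ between the libraries by 1.5-fold in any case. Of the 9 that were measured, 7 had log2 ratios above 0 and 2 below, with a median of 0.07, from -0.19 for Hsp90b1 to 0.45 for Syvn1. The 20 measured members with a promoter entry but no full ERSE, Ero1l left aside, had a median of -0.05, from -0.42 for P4hb to 0.25 for Pdia5. Both groups overlapped over most of their range.

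Ero1l encodes ERO1α, the oxidase that restores the disulfide of protein disulfide isomerase. The gene lies on chromosome 14 from 45283087 to 45318771 on the minus strand of GRCm38, and its longest transcript has 4418 bases in 16 exons. It shares no exon bases with another gene of the table, and 1.99% of its 41-base stretches, the read length, also occur in a gene elsewhere. The values of 225 FPKM untreated and 83.2 FPKM with ALA correspond to about 22436 and 10038 reads. The ALA value was thus 2.70-fold lower, with an approximate exact (Clopper-Pearson) 95% counting interval of 2.64 to 2.76, and the log2 ratio was -1.42. Counted from the lowest log2 ratio, Ero1l ranked 59 of 10929 measured genes. Its rank was 4 of 749 when only genes whose mean reached 100 FPKM were counted. The counting interval covers counting error only and says nothing of the variation between cultures.

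Ero1lb encodes ERO1β, the second ER oxidase, best known from secretory tissues such as the pancreas. Its level was 1.62 FPKM untreated and 1.75 FPKM after ALA, and its log2 ratio 0.07. About 155 and 202 reads stood behind these values, and the counting interval of the plain ratio ran from 0.871 to 1.34. A ratio as low as that of Ero1l, 0.370, lay outside that interval. Of its 41-base stretches 10.3% also occur elsewhere, most of them in Gm18562. Measured per length, Ero1l was 138.6 times as abundant as Ero1lb without ALA and 47.6 times with it, so the ERO1 transcript pool consisted almost entirely of Ero1l in both.

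The protein disulfide isomerases are the substrates of the oxidases and the catalysts of disulfide formation. P4hb, which encodes the main isomerase PDI, was the most abundant member in the untreated library, at 620 FPKM, and had 464 FPKM with ALA. This was the lowest log2 ratio after Ero1l, -0.42, or a plain change of -25.1%, short of 1.5-fold. PDI is also the β subunit of collagen prolyl 4-hydroxylase, and P4ha1, the gene of a catalytic α subunit and named here after its value was seen, went from 123 to 67.0 FPKM. The 5 other isomerases had log2 ratios from -0.13 to 0.25. Pdia3, which encodes the glycoprotein-specific isomerase ERp57, had 484 and 467 FPKM, and Pdia6 had 319 and 326 FPKM. Pdia4 had 84.1 and 77.0 FPKM and Txndc5 166 and 166 FPKM. Pdia5 was the highest of the group, at 24.8 and 29.8 FPKM, a log2 ratio of 0.25.

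Because FPKM is per length, oxidase and isomerase levels can be set against each other. The Ero1l level was 36.2% of the P4hb level without ALA and 17.9% with it. Against Pdia3 it was 46.4% and 17.8%, and against Pdia6 70.4% and 25.6%. Ero1l was thus 8 in the order of members by level in the untreated library, between Canx and Txndc5, and 10 in the ALA library, just above Dnajc10. P4hb went from 1 to 3 in that order.

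The HSP70 and HSP90 chaperones gave 1 log2 ratio above 0 and 3 below, with a median of -0.14. Hspa5, which encodes BiP, the main ER chaperone and the usual marker of that response, had 274 and 251 FPKM, a log2 ratio of -0.13. Hsp90b1, which encodes GRP94, had 505 and 444 FPKM, or -0.19, with 10.3% of its exon bases overlapping 1810014B01Rik. Sil1, a nucleotide exchange factor for BiP, had 23.1 and 20.6 FPKM. Hyou1, a large HSP70 relative named for its induction by low oxygen, was the only member of the group with a log2 ratio above 0, at 14.6 and 17.0 FPKM, or 0.20. Hyou1 and Ero1l, both known as hypoxia-responsive, thus lay on opposite sides of 0.

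The lectin chaperones hold glycoproteins during folding. Calr, encoding calreticulin, had 517 and 564 FPKM, and was the most abundant member in the ALA library. Canx, encoding calnexin, had 272 and 274 FPKM. Their log2 ratios were 0.13 and 0.02. The J proteins, which recruit client proteins to BiP, had 3 of 4 log2 ratios above 0. Dnajb11 had 48.0 and 54.0 FPKM, Dnajc10, a disulfide reductase, 76.1 and 82.7 FPKM, and Dnajc3, also known as an inhibitor of PERK, 22.5 and 26.0 FPKM. Dnajb9, a target of XBP1 that restrains IRE1, was on the other side at 9.21 and 7.80 FPKM, a log2 ratio of -0.21. Small proteins that are strongly raised by ER stress were nearly equal in the libraries. Sdf2l1 had 33.5 and 31.6 FPKM, Creld2 36.5 and 39.5 FPKM and Manf 51.7 and 54.3 FPKM, with log2 ratios from -0.08 to 0.11.

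Among the stress sensors, Ern1, the gene of IRE1α, had 5.55 and 5.43 FPKM and Atf6 10.8 and 11.4 FPKM. Atf6b, a relative of Atf6, had 29.0 and 34.0 FPKM, a log2 ratio of 0.22. Xbp1, the transcription factor whose mRNA IRE1 splices, had 51.5 and 39.7 FPKM, a log2 ratio of -0.37 and a plain change of -22.8%. A gene-level FPKM does not separate the spliced from the unspliced Xbp1 mRNA, and the activity of IRE1, ATF6 and PERK was not measured. Genes on which XBP1 is known to act lay on both sides of 0, among them Dnajb9, Edem1 and Derl2 below it and Dnajc3, Dnajb11 and Syvn1 above it. These are examples and not a full list of its targets.

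**Figure D3:**
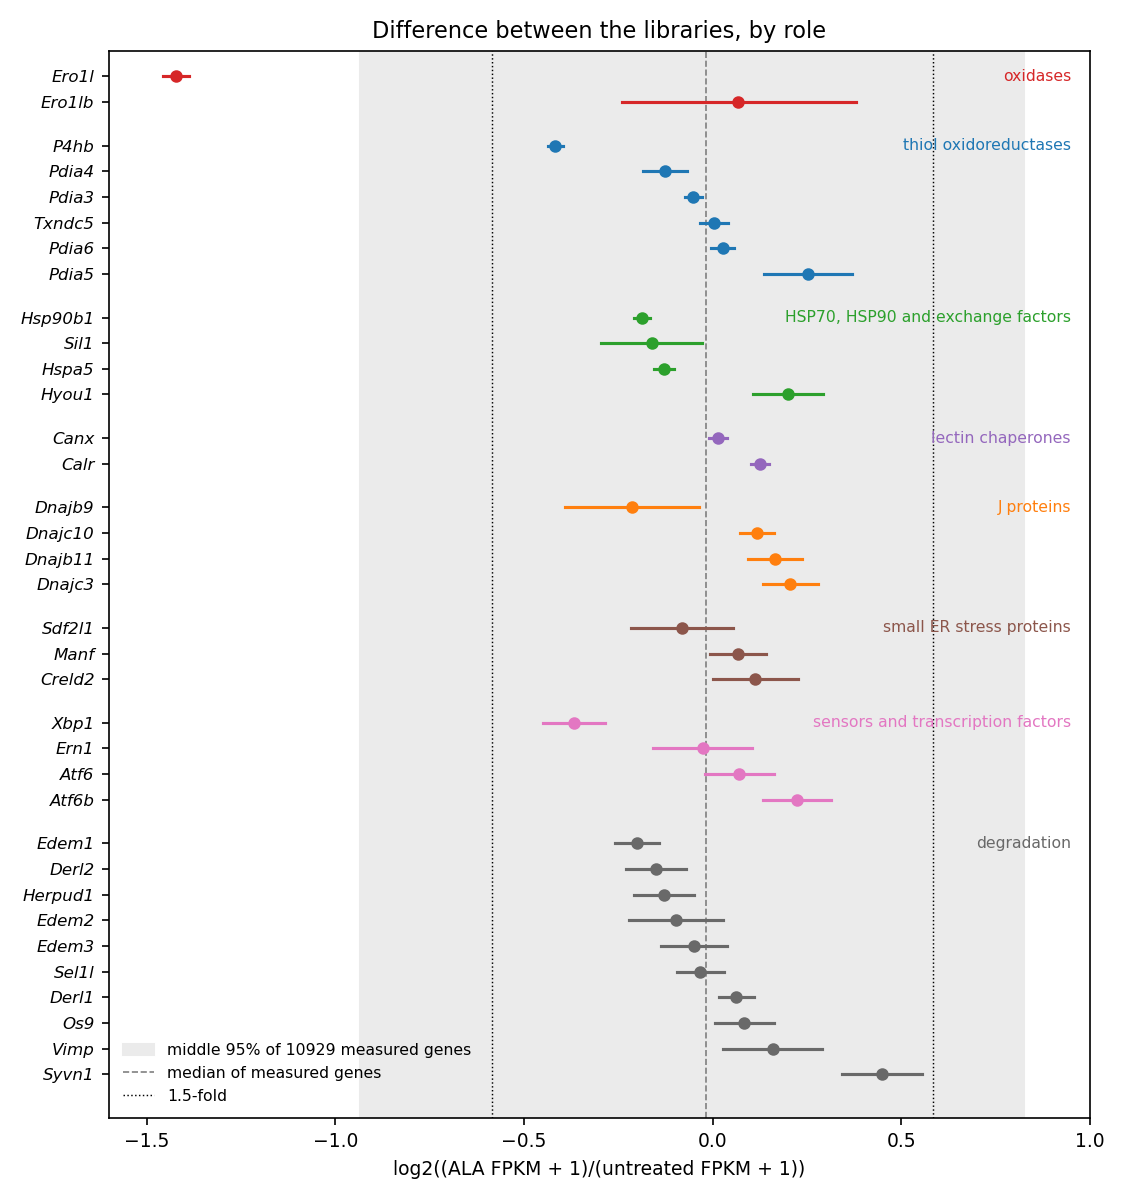
The log2 ratio of each measured member (points), grouped by role, with the approximate 95% counting interval (bars), the middle 95% of all measured genes (grey band, -0.93 to 0.83) and dotted lines at 1.5-fold. Ero1l at -1.42 is the only member outside the band or beyond a dotted line, and the members of the other roles scatter on both sides of 0.

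The degradation genes gave 4 log2 ratios above 0 and 6 below among 10 measured, with a median of -0.04. Syvn1, the gene of the ubiquitin ligase HRD1, had the highest log2 ratio of all members, 0.45, from 12.4 to 17.4 FPKM. The plain change was 39.5%, with a counting interval of the ratio from 1.30 to 1.502. Its partner Sel1l, which holds the complex together, had 28.0 and 27.4 FPKM, and Os9, a lectin that delivers glycoproteins to it, 38.9 and 41.3 FPKM. In this pair of libraries the ligase and its partners thus did not differ alike, though each lay within 1.5-fold.

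The remaining degradation genes were within 0.20 of 0. The mannosidase-like genes Edem1, Edem2 and Edem3 had log2 ratios of -0.20, -0.10 and -0.05. Herpud1, a stress-inducible scaffold of the complex, had 55.5 and 50.7 FPKM. Of the derlins, thought to form the exit channel, Derl1 had 91.2 and 95.3 FPKM and Derl2 25.3 and 22.7 FPKM, while Derl3 was listed at 0 in both libraries and was the only member not measured. Vimp, whose product recruits the extraction motor to the derlins, had 30.8 and 34.5 FPKM.

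Without Ero1l the members were more narrowly spread than measured genes at large. A log2 ratio within 0.25 of 0 was found for 30 of the 34 (88.2%), against 54.9% of all measured genes and 59.7% of those whose mean reached 5 FPKM. The exceptions were P4hb, Xbp1, Syvn1 and Pdia5. No test was made of this, and 32 of the members had a mean of at least 10 FPKM. Summed over the 35 members other than Ero1l, the level went from 4028 to 3838 FPKM, a change of -4.72%, next to a change of -5.29% in the sum over all genes. For the 2 oxidases the summed level went from 226 to 85.0 FPKM, a change of -62.5%.

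Related gene lists place the members. Of 26 measured HIF targets, all had log2 ratios below 0 and 22 were lower at 1.5-fold (7.16% of measured genes), with a median of -0.88. This list was written with earlier values of several of its genes known. Ankrd37, whose exons overlap Lrp2bp in 26.4% of their bases, had the lowest log2 ratio, -1.59, followed by the mitophagy receptor gene Bnip3 at -1.42. Bnip3 shares 42.5% of its 41-base stretches with other loci. Pdk1, a kinase that closes off pyruvate oxidation, was at -1.32, the hexokinase gene Hk2 at -1.23 and the phosphofructokinase gene Pfkl at -1.18. The most abundant was the phosphoglycerate kinase gene Pgk1, at 1366 and 747 FPKM, with 54.3% shared stretches. Placed among these genes, Ero1l was 3 of 27 from the lowest, whereas the 34 other measured members, from -0.42 to 0.45, lay above the median of the HIF targets without exception. The ranges still overlapped, since the highest HIF target, Pfkfb3, was at -0.02.

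The PERK and ATF4 arm of the unfolded protein response, also listed with earlier values known, had a median of -0.04, with 3 of 15 genes lower at 1.5-fold (7.16% of measured genes) and none higher (5.9%). The list includes Eif2a (67.0 and 64.5 FPKM), which encodes the initiation factor eIF2A and not the PERK substrate eIF2α. The level of Atf4, which encodes the transcription factor of the arm, was 245 and 242 FPKM. Ddit3, the gene of the pro-death factor CHOP, had 97.0 and 58.7 FPKM, and Ppp1r15a, the gene of the phosphatase subunit GADD34, 8.95 and 4.94 FPKM. Atf3, a stress-induced transcription factor, had 2.29 and 0.284 FPKM. How the differences of Ero1l, of the HIF targets and of Ddit3 relate to each other was not tested. Among 12 other genes of unfolded protein response signalling 10 were below 0 (52.2% of measured genes), none by 1.5-fold, with a median of -0.16. The 3 with the largest differences were Nfyc, a subunit of the factor that binds the CCAAT end of the ERSE, at -0.55 with 24.4% shared stretches, Crebrf at -0.42 and Wfs1 at -0.35. Tmbim6, an ER membrane gene that inhibits cell death and the most abundant of them, was at 0.12.

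**Figure D4:**
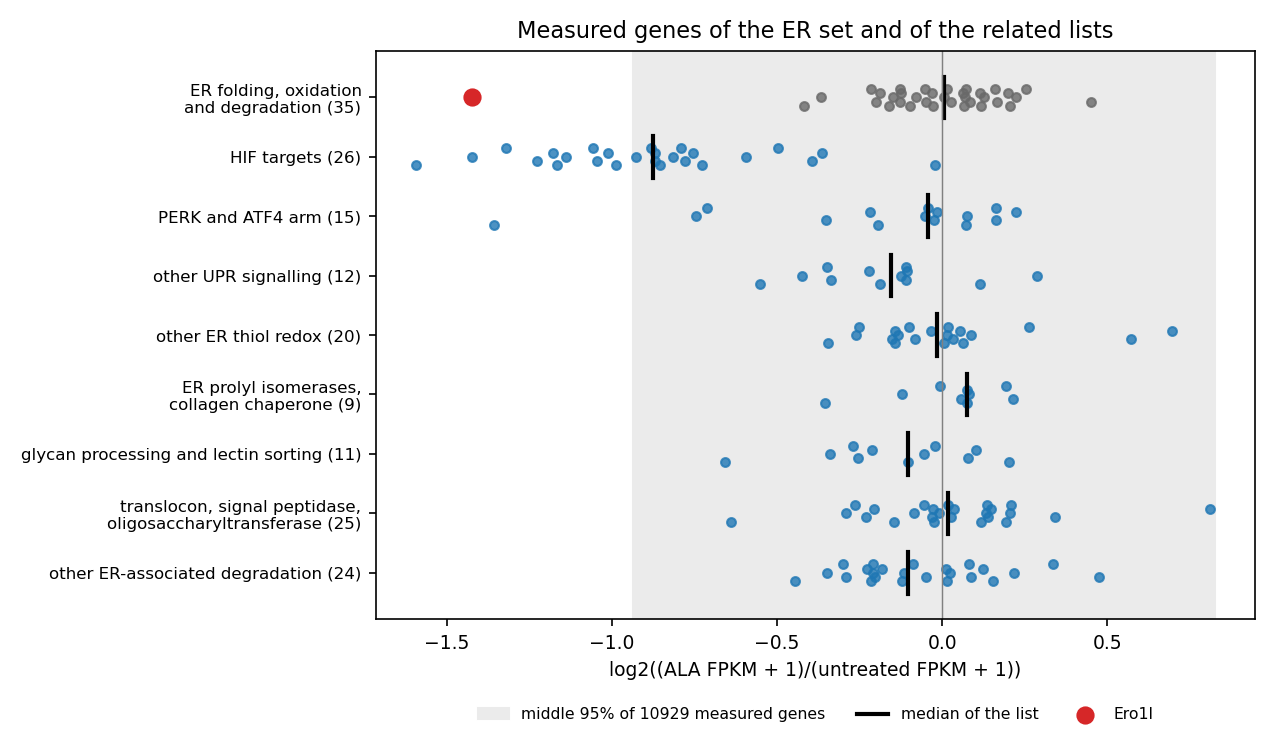
The log2 ratio of every measured gene of the 36-gene set (35 genes, Ero1l in red) and of the 8 related lists, with the median of each list (black bar) and the middle 95% of all measured genes (grey band). The HIF targets have a median of -0.88 and run from -1.59 to -0.02. Ero1l lies within that range, as do the other members with log2 ratios below 0. The other lists have medians between -0.16 and 0.07.

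Other thiol redox genes of the ER, which the HIF list does not include, had a median of -0.01. At 1.5-fold 1 of 20 was higher (5.9% of measured genes) and none lower (7.16%). The gene that was higher was Gpx7, an ER peroxidase that oxidises isomerases with hydrogen peroxide, at 11.3 and 18.9 FPKM, a log2 ratio of 0.70. Txndc11 followed at 0.57, and Txndc16 was at -0.35. Sep15, which encodes a selenoprotein that works with the folding sensor UGGT and was the most abundant of these genes, had 267 and 223 FPKM. Prolyl isomerases and the collagen chaperone had a median of 0.07, none past 1.5-fold. Serpinh1, the collagen chaperone HSP47, had 396 and 412 FPKM, Fkbp7 was at 0.22, Fkbp11 at 0.19 and Fkbp14 at -0.36.

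The other lists of the secretory machinery lay near 0 as well. Glycan processing and lectin sorting genes had a median of -0.10, with 1 of 11 lower at 1.5-fold (7.16% of measured genes). That gene was Erlec1, an ER lectin of the degradation pathway related to Os9, at 15.2 and 9.26 FPKM. Man1a was at -0.34, Mcfd2 at -0.27 and the abundant glucosidase gene Ganab at -0.10. Translocon, signal peptidase and oligosaccharyltransferase genes had a median of 0.02, with 1 of 25 higher (5.9% of measured genes) and 1 lower (7.16%) at 1.5-fold. Sec11c, a catalytic subunit of signal peptidase, was the higher one, at 17.3 and 31.1 FPKM.

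The lower one was Sec61g, a small subunit of the translocon, at 144 and 92.1 FPKM, and 15.2% of its stretches are shared. Sec61a2 was at 0.34, with 19.9% of its exon bases overlapping Nudt5, and Ssr3, the most abundant, at -0.20. The other degradation genes had a median of -0.10, none of 24 past 1.5-fold. Faf2, which tethers the extraction motor to the ER, was at 0.47, and Vcp, the gene of that motor, at 0.33. Vcp shares 42.1% of its stretches, most with Vcp-rs. Selk was at -0.45 with 14.2% shared stretches, and Tmub1 at -0.35. Over the 6 lists other than the HIF targets and the PERK and ATF4 arm, 2 of 101 measured genes were lower and 2 higher at 1.5-fold, where 7.16% and 5.9% of all measured genes were. The 3 lower genes of the PERK and ATF4 arm are not in that count.

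The libraries had the markers of fibroblasts, with Col1a1 at 1047 and 980 FPKM and Vim at 2272 and 1896 FPKM, though Fap was listed at 0. Of 10 measured fibroblast markers 8 had log2 ratios below 0, their summed level was 12747 FPKM untreated and 11199 FPKM with ALA, and Thy1 (-0.62) and Pdgfra (-0.64) were lower at 1.5-fold. The estimated depth was about 22.6 M reads untreated and 27.3 M with ALA. Epcam, Krt18, Kdr, Myod1, Myog, Adipoq and Fabp4 were listed at 0 in both libraries. Other markers of the same cell types were not. The adipocyte marker Lpl had 51.3 and 52.3 FPKM, the muscle marker Des 1.95 and 1.12 FPKM and the epithelial marker Cdh1 1.23 and 0.944 FPKM. The endothelial marker Pecam1 had 0.126 and 0.748 FPKM, and Cdh5 0 and 0.00739 FPKM. Of the blood and macrophage markers 3 of 6 were measured, and the summed level of all 6 was 29.9 FPKM untreated and 17.9 FPKM with ALA. Cd14 went from 13.1 to 4.69 FPKM and Lyz2, with 22.3% of its stretches shared, from 15.2 to 9.59 FPKM. The others were higher with ALA at low levels, Cd68 at 0.237 and 1.40 FPKM, Aif1 at 0.949 and 1.42 FPKM, Ptprc at 0.367 and 0.754 FPKM and Csf1r at 0 and 0.0466 FPKM. The part of these fibroblast and blood markers in the difference of Ero1l was not tested. Plasma cell genes, which mark a large ER, were low or similar, with Mzb1 and Prdm1 below 1 FPKM in both and Sdc1 at 57.3 and 53.3 FPKM. In bulk RNA, fewer cells that express a gene and less RNA per cell cannot be told apart.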

How the data were processed

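Per the labels' protocols, a TruSeq RNA kit was used for library preparation, and a Genome Analyzer IIx gave 41-base single-end reads. The authors deposited FPKM values per gene, 1 column per library. FastQC 0.11.5, TopHat2 2.1.1, Cufflinks 2.2.1 and build mm10 are named in the submitters' processing notes. Which annotation, options, strand setting and scaling were used is not given in the sources used here. The deposited interval bounds were equal in every row and carried no error.

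FPKM values were compared with Python 3.11.15 (numpy 2.4.6, pandas 2.3.3, scipy 1.17.1), with a pseudocount of 1 FPKM and a minimum mean of 1 FPKM. No test was possible. The spacing of low values over 1394 single-transcript genes put the depth at 22.6 and 27.3 M reads (24.1 and 29.1 M with 200 bases taken off each length). Reads per gene were FPKM times the longest transcript times depth, so all intervals are approximate. Positions, lengths and shared sequence came from GENCODE vM21 (GRCm38, the assembly of mm10), which matched 22335 genes and all 36 members. The calls were tried on simulated data with counting error only and planted differences larger than 1.5-fold. That check covers neither differences near 1.5-fold nor variation between cultures.

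The members and lists were chosen with earlier results of these data known. Named were all members and, per related list, the 3 measured genes with the largest absolute log2 ratio (5 for HIF targets) and the most abundant. Pfkfb3, the HIF target with the highest log2 ratio, was named as well. Fam8a1 of the other degradation genes and the marker Jchain had no matching row. No protein sequences were used, although a comparison of protein features had been planned. Alternatives were other pseudocounts, scalings and filters, and leaving out genes with at least 10% shared or overlapping sequence.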

Additional observations from a re-analysis of the deposited data

How the results depend on the processing

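Under each of the 8 alternative settings 1 member, Ero1l, was lower and none higher at 1.5-fold. Ero1l was at -1.38 with a pseudocount of 5 FPKM and at -1.34 with equal library totals. Equal library totals add about 0.08 to each log2 ratio of a well expressed gene. The median of the members became 0.082, that of other unfolded protein response signalling genes -0.083 and that of other ER thiol redox genes 0.060, while the median over all measured genes became 0.05. Under that scaling 13 of 35 measured members were below 0, against 17 as deposited. The sign of 4 members, Pdia3, Ern1, Sel1l and Edem3, changed over the settings, and 18 were above and 13 below 0 in all. The share of measured genes lower at 1.5-fold was 2.74% with a pseudocount of 5 FPKM. No paired analysis was possible because each group has 1 library and the labels give no replicate numbers. The number of libraries, not depth, limits the comparison: about 22436 and 10038 reads stood behind Ero1l, but no value shows how far 2 untreated cultures would differ. Ero1lb, with about 155 and 202 reads, is the measured member that depth limits most.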

Other observations

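Krt14, a keratin of basal epithelial cells, had 84.2 FPKM untreated and 114 FPKM with ALA, although Epcam and Krt18 were listed at 0 and Krt8 was at 0 and 0.0142 FPKM. Of its 41-base stretches 19.8% also occur elsewhere, most of them in Krt16. Within the secretory machinery, the log2 ratio of Sec11c was 0.81 and that of Sec11a, the other catalytic subunit of signal peptidase, 0.12. Erlec1 was at -0.66 and Os9 at 0.08. Gpx7 was at 0.70 and its relative Gpx8 at 0.01. These pairs were chosen after their values were seen.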
